A study of Mus musculus with 12 samples.

Results

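The kinesin superfamily was described in the meninges, the membranes around the brain, of mice with and without dextran sulfate sodium (DSS) colitis. Members were the rows of the deposited count table whose symbol was Kif or Kifc with a number and, for Kif, an optional letter, with antisense, pseudogene and Rik names left out. This gave 40 of 47747 gene symbols. Of these, 38 passed the filter on low counts, and the other two, Kif12 and Kif2b, had 0 counts in every library, so a fold change could not be had for them. Total RNA from C57bl/6 mice was sequenced in 12 libraries. The labels do not name animals, so each library was taken as 1 mouse, numbered here by its replicate number. The DSS group (6 mice) had received 2% DSS, a sulfated polymer used to injure the gut lining, in the drinking water for 5 days and then plain water, and the Control group (6 mice) carries no treatment in its labels. Mice were culled after 6 days, the labels not saying from which day this was counted, and the labels give neither age nor sex. Within the family, 3 neuronal transport members (Kif5a, Kif5c and Kif1a) were set against 3 mitotic members (Kif11, Kif20a and Kif23). These 6 were picked with their DSS against Control differences known, so their values are given as a description with no test.

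Kinesins are motor proteins that hydrolyse ATP and walk along microtubules or take microtubule ends apart. Transport kinesins carry vesicles, organelles and RNA, mostly outward from the cell centre, and several of them are made chiefly in neurons, where cargo travels along axons. Mitotic kinesins are made in dividing cells, where they push spindle poles apart, align chromosomes and organise the midbody at cytokinesis, and their genes are switched on together late in the cell cycle. The meninges hold fibroblasts, vessels, border macrophages, nerve fibres and immune cells.

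Because the mitotic members share their timing in the cell cycle, the promoter windows of Kif11, of Kif23 and of Kif4 (the mitotic member outside the 6 with the smallest p) are shown, with that of Kif5c beside them. Windows run from 250 bases before to 50 after the annotated start and come from RefSeq on GRCm38.p6, 5′ to 3′ on the strand of the gene. They lie at chr19:37376132-37376431 (plus strand, Kif11), chr9:61946750-61947049 (minus strand, Kif23), chrX:100625815-100626114 (plus strand, Kif4) and chr2:49619036-49619335 (plus strand, Kif5c). Capitals mark TTTGAA, the letters of the cell cycle genes homology region, and CCAAT, the box bound by NF-Y, on either strand, so that TTCAAA and ATTGG are the same letters read from the other strand.
Kif11: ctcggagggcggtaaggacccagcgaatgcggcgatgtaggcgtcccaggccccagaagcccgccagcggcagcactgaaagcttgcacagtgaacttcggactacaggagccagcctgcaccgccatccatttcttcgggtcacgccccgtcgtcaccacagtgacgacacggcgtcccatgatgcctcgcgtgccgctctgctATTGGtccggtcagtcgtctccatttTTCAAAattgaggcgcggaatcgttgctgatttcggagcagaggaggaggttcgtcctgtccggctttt
Kif23: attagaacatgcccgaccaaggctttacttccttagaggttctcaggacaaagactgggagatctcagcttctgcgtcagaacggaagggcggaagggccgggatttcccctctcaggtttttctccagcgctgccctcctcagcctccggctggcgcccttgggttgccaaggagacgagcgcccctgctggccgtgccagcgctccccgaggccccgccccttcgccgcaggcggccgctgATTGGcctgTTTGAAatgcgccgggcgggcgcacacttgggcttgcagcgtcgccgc
Kif4: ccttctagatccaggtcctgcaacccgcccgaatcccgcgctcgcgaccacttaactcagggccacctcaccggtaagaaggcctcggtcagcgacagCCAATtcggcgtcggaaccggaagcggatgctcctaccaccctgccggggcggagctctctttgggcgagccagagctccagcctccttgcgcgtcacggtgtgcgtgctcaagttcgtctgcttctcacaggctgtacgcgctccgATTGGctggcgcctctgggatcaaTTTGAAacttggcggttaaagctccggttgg
Kif5c: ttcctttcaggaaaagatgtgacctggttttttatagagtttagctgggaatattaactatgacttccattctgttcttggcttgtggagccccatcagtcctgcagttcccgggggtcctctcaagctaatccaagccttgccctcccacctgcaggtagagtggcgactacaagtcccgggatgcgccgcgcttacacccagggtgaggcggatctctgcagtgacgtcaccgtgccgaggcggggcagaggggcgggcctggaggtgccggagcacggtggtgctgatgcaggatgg

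In Kif11 the TTTGAA letters lay from -19 to -14 and CCAAT from -45 to -41 relative to the start, in Kif23 from 3 to 8 and from -7 to -3, and in Kif4 from 20 to 25 with CCAAT from -5 to -1 and from -152 to -148. The Kif5c window held neither. Among the mitotic members, 11 had a window, and TTTGAA was present in 10 of the 11 windows (90.9%), against 5878 of all 32851 promoter windows (17.9%). The window without it was that of Kif18a. TTTGAA and CCAAT stood together in 7 of the 11 (63.6%), against 6.95% of all windows. CCAAT, with or without TTTGAA, was also in 7 of the 11 (63.6%), against 37.4% of all windows. In the 4 neuron-enriched members with a window, 1 of 5 windows held TTTGAA (Kif1a) and 0 held CCAAT. In the broadly expressed transport members, TTTGAA was in 0 of 8 windows and CCAAT in 4 of 8. The related letters TTTAAA, which read the same on both strands, were in 2 of the 11 mitotic windows (Kif14 and Kif2c) and in 13.2% of all windows. A match is a description of the letters and not of a bound site.

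The libraries held 9312788 to 41869997 counts each. Genes of fibroblasts, the defining cells of the meninges, were abundant: Col1a1 lay between 4164 and 9121 CPM (counts scaled to the TMM library size) and Dcn between 604 and 951 CPM. Col1a1 is also on the osteoblast list used here. Genes of osteoblasts, the bone-forming cells, were abundant as well, with Bglap between 167 and 847 CPM and Alpl between 308 and 642 CPM. The labels name colon as the source while titles and protocol name meninges, and in a list of 8 colon epithelium genes Cdx2 had 0 counts in every library and the summed level was 4.80 to 12.7 CPM. Control mouse 2 had 59.8% of its counts in 2 18S ribosomal RNA features, against 0.0430% to 9.23% in the other libraries. DSS mouse 2 had a summed level of 194 CPM over 8 skeletal muscle genes, against 11.7 to 26.6 CPM in the others. Where leaving out one of these libraries changed a call of a named kinesin gene outside the contrasted members, this is given in the text. Among the contrasted members, the calls of Kif11 and Kif20a were lost without Control mouse 2, and Kif5a was called lower without DSS mouse 2. As these members were picked on this comparison, nothing is read from their calls. In whole tissue, fewer cells of a type and less RNA per cell cannot be told apart.

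Kinesin levels in control meninges spanned a wide range and were highest for transport motors. Divided by exon length in GENCODE M21, Kif1c, a broadly expressed vesicle motor, had the highest level, with a median of 21.3 CPM per kilobase (range 18.1 to 22.3, 6 Control mice), and its range did not overlap that of any other member. Kif5c, a heavy chain of conventional kinesin known chiefly from neurons, came next, with a median of 14.7 CPM per kilobase (10.7 to 15.9). The ubiquitous heavy chain Kif5b had 12.6 CPM per kilobase (10.1 to 15.9), so these heavy chains did not differ beyond the spread between mice. Kif5a, the third heavy chain and the most strictly neuronal, was lower at 1.83 CPM per kilobase (1.33 to 3.05). The axonal vesicle motor Kif1a, at 7.18 CPM per kilobase (6.11 to 8.75), overlapped Kif1b, a motor of mitochondria and vesicles, at 8.55 CPM per kilobase (7.23 to 9.21).

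Mitotic members stood at the low end of the same scale. The highest was Kif22, which moves chromosome arms, with a median of 0.908 CPM per kilobase (0.576 to 1.19), and the lowest was Kif14, which acts at the midbody, with 0.0672 CPM per kilobase (0.0521 to 0.0841). Kif20a had 0.529 CPM per kilobase, Kif11 0.442 and Kif23 0.249, with overlapping ranges. In the cilium and centriole class, the highest level was that of Kif7, which regulates Hedgehog signalling at the cilium tip (2.71 CPM per kilobase, 2.33 to 3.13), and Kif27 ran from 0.0843 to 0.668 CPM per kilobase. Among the remaining members, Kif26a, a kinesin without motor activity, was highest at 3.67 CPM per kilobase (2.62 to 4.38). Low counts limited the mitotic members: Kif14 had 6 to 63 counts per library and Kif11 34 to 239, against 665 to 3540 for Kif5c.

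**Figure D1:**
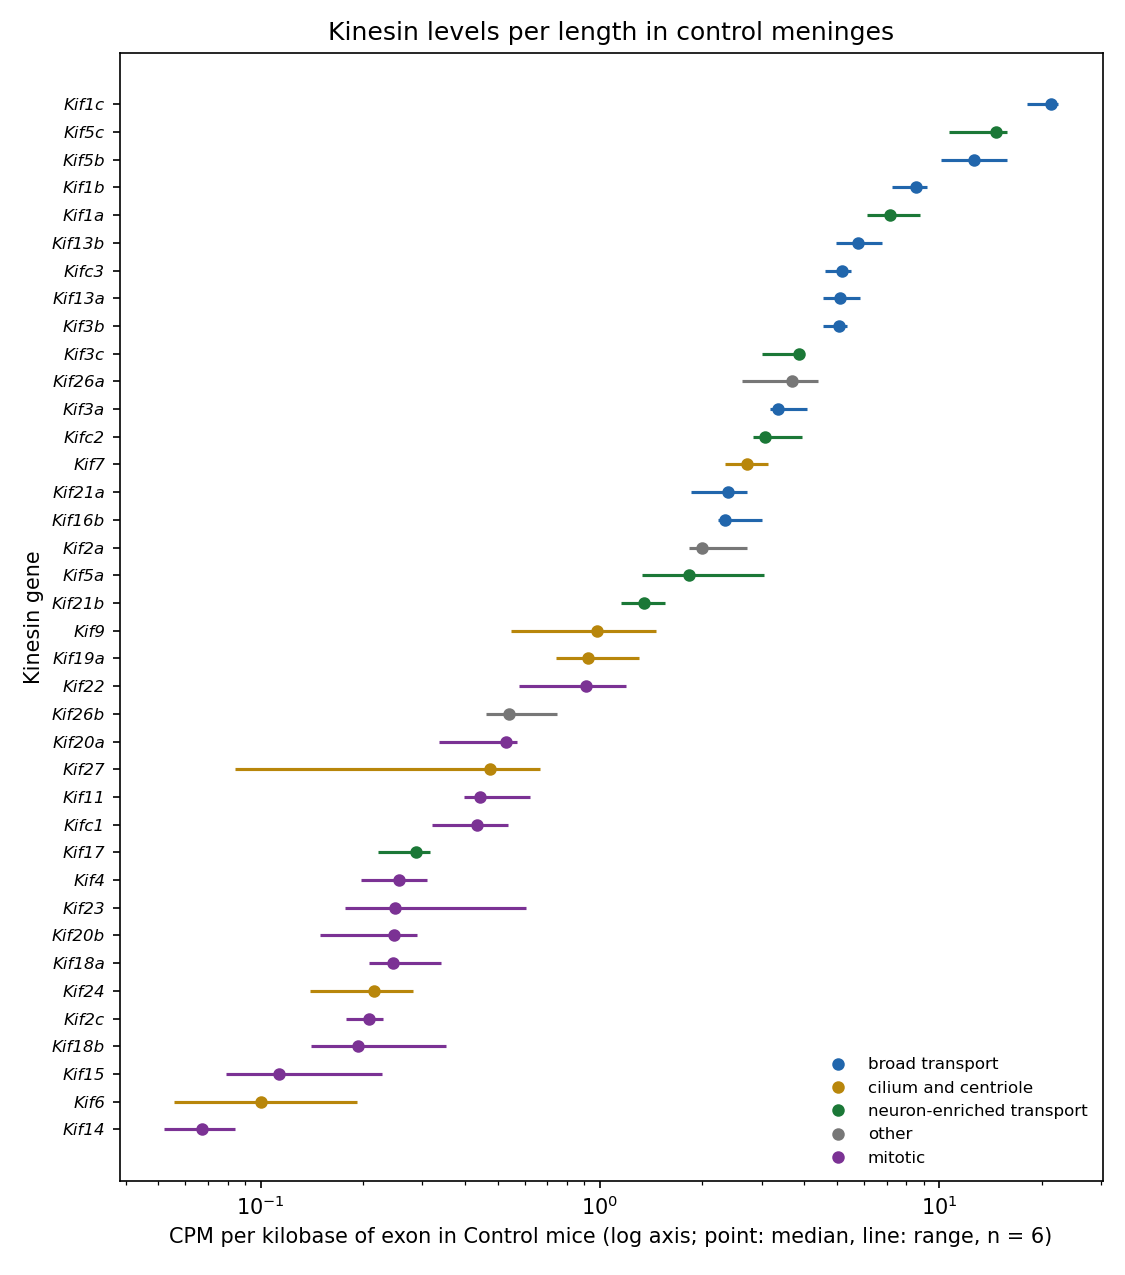
Levels of the 38 tested kinesin genes in the 6 Control mice, as CPM per kilobase of exon on a log axis, with the median as a point, the range as a line and colour for the role class. Kif1c is highest with a median of 21.3 and Kif14 lowest with 0.0672, and the mitotic members lie below 1 in the median.

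In the comparison of DSS with Control mice over all 18593 tested genes, 5 kinesin genes were called higher and 2 lower by edgeR's quasi-likelihood test at a Benjamini-Hochberg adjusted p under 0.05. Of all tested genes, 3.68% were called higher and 1.26% lower (4.94% in either direction). As 4 of the 7 called members are among the 6 picked on this comparison, nothing is read from these shares. Of the 32 tested members outside the 6, 3 rose (Kif4, Kif14 and Kif2c) and 0 fell, while 9 had an unadjusted p under 0.05, as did 19.0% of all tested genes. DESeq2 called 5 of these 32 higher and 1 lower, and limma 1 and 0. The median log2 fold change was 0.01 over the 38 members, 0.89 over the 12 mitotic members and -0.41 over the 7 neuron-enriched ones, beside -0.02 over all genes tested.

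**Figure D2:**
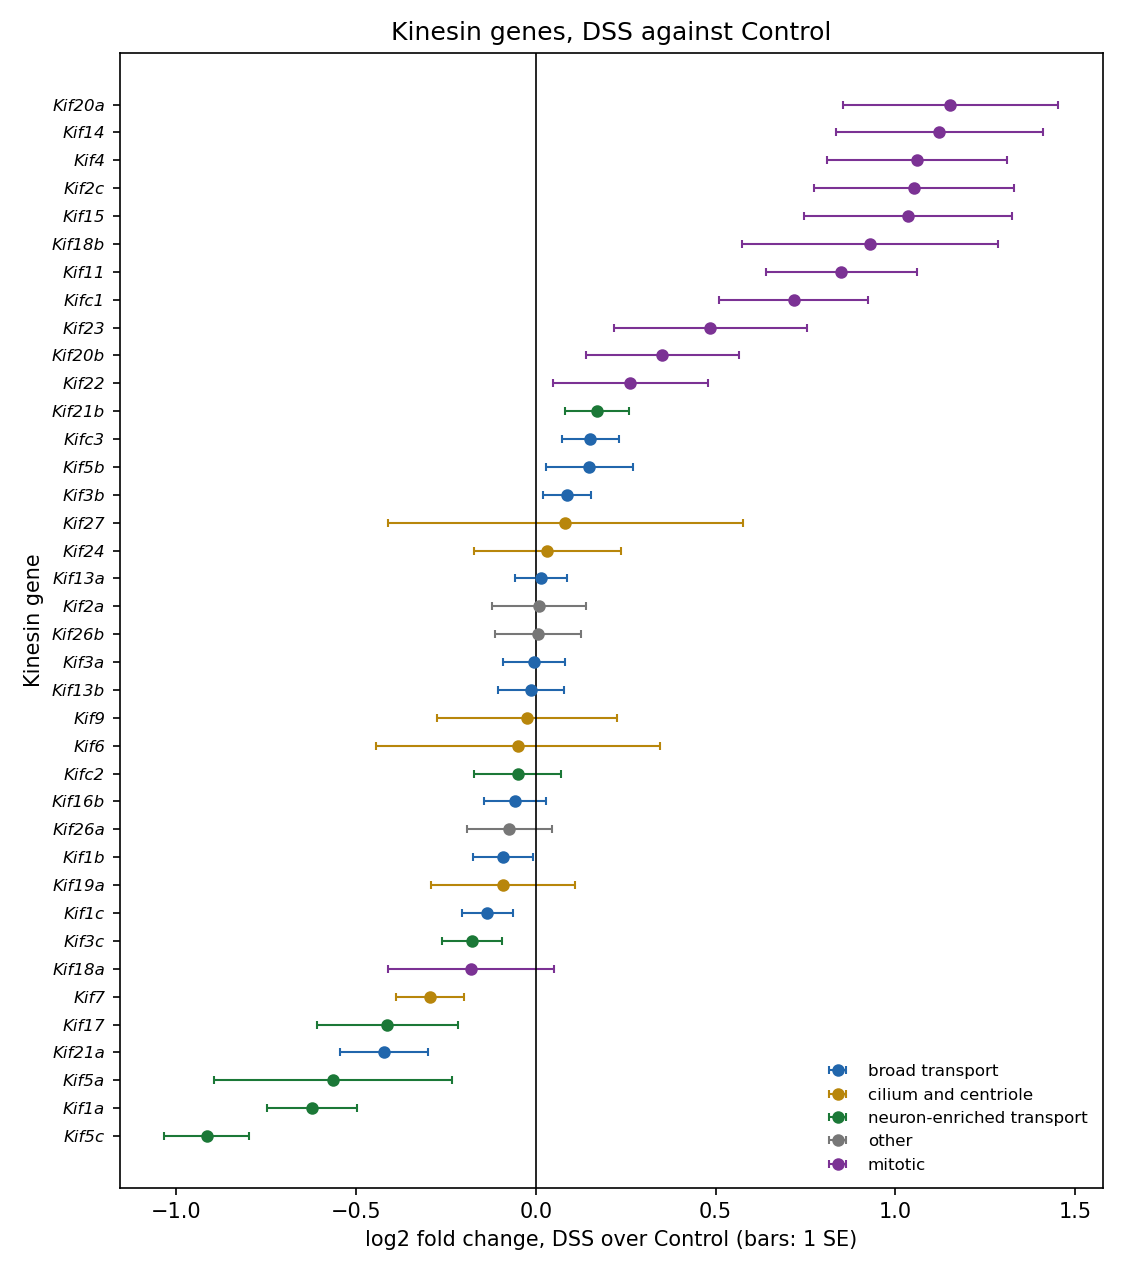
Fitted log2 fold changes of the 38 tested kinesin genes, DSS over Control, with 1 SE to each side and colour for the role class. Mitotic members reach from -0.18 (Kif18a) to 1.15 (Kif20a), the lowest value is -0.92 (Kif5c), and most of the other classes lie near 0.

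Kif5c was lower in every DSS mouse than in any Control mouse. Its level ran from 76.3 to 113 CPM in Control mice (median 105) and from 42.8 to 69.1 CPM in DSS mice (median 51.3). The groups did not overlap, a separation in this direction found in 1 of the 38 kinesin genes and in 0.823% of all tested genes. As Kif5c was picked on this comparison, nothing is read from this share. The means were 101 ± 13.5 CPM and 53.4 ± 9.14 CPM (SD, n = 6 each), a log2 fold change of -0.92 ± 0.12 SE. The gene lies on chromosome 2 from 49619298 to 49774778 (plus strand, GRCm38), and counts are per whole gene, with exons not separated. With any 1 mouse left out the log2 fold change was -0.86 or lower.

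Kif1a was lower in DSS mice, with 1 exception. Control mice ran from 57.0 to 81.6 CPM (median 67.0) and DSS mice from 34.3 to 61.8 CPM (median 44.7). DSS mouse 2 was the highest DSS mouse and lay within the Control range, and the other 5 lay below every Control mouse. The log2 fold change was -0.62 ± 0.13 SE, from 69.2 ± 8.85 to 45.0 ± 9.31 CPM (SD, n = 6 each). Kif1a lies on chromosome 1 from 93015464 to 93101951 (minus strand).

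Kif5a showed the same exception to a larger degree. Control mice ran from 9.28 to 21.3 CPM (median 12.8). Of the DSS mice, 5 had 5.01 to 9.19 CPM, below every Control mouse, and DSS mouse 2 had 22.2 CPM, above every Control mouse. The log2 fold change was -0.56 ± 0.33 SE with all mice and -0.99 without DSS mouse 2. Kif5a lies on chromosome 10 from 127225696 to 127263348 (minus strand).

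The share of Kif5c among the conventional kinesin heavy chains was lower in DSS mice. It is computed from the picked Kif5c and Kif5a, so it is no result apart from theirs. Kif5c made up 49.1% ± 6.06 of the length-scaled Kif5a, Kif5b and Kif5c signal in Control mice and 33.1% ± 7.10 in DSS mice (SD, n = 6 each). The ranges, 41.6% to 58.0% and 23.9% to 43.6%, overlapped. Kif5b itself had 81.0 to 127 CPM in Control and 93.0 to 148 CPM in DSS mice (log2 fold change 0.15 ± 0.12 SE, adjusted p = 0.572 by edgeR), which did not pass the test.

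The other neuron-enriched members did not pass the test. Kif17, a dendritic and ciliary motor, differed by -0.41 ± 0.19 SE on the log2 scale (adjusted p = 0.270), Kif3c, of the heterotrimeric kinesin, -0.18 ± 0.08 SE (adjusted p = 0.263), and Kif21b, a microtubule-pausing motor, 0.17 ± 0.09 SE (adjusted p = 0.325), all by edgeR. Kifc2 had 12.7 ± 1.74 and 12.3 ± 2.08 CPM (SD, n = 6 each).

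Neuron markers had lower mean levels beside these members, although few passed the test. In a list of 14 neuron markers, of which 12 were tested, 1 fell by edgeR's test and 0 rose, beside 1.26% and 3.68% of all tested genes. The fallen gene was Scg2, a granin of secretory granules. The median log2 fold change of the list was -0.59, and DESeq2 called 6 lower. Scg2 had 108 ± 21.4 CPM in Control and 69.7 ± 14.6 CPM in DSS mice (SD, n = 6 each; edgeR adjusted p = 0.0291), and the synaptic gene Snap25 had 94.5 ± 20.4 and 62.8 ± 12.0 CPM (edgeR adjusted p = 0.0504). The summed level of the list ran from 330 to 581 CPM in Control mice and from 268 to 376 CPM in DSS mice, so the groups overlapped. It rests mainly on Syp, Scg2, Snap25 and Eno2, with Control means of 164, 108, 94.5 and 74.1 CPM. Nefl, Nefm, Elavl4 and Prph had Control means of 2.10, 0.787, 0.618 and 1.11 CPM, and Nefm and Prph did not pass the filter. The neuronal nuclear marker Rbfox3 was at 0.333 to 2.60 CPM in all libraries. With 1 mouse left out, 0 of the list fell without Control mice 2, 4, 5 or 6 or DSS mice 4 or 6, 3 without DSS mice 3 or 5, and 4 without Control mouse 1 or DSS mouse 2. The part of neuronal material in the Kif5a, Kif5c and Kif1a differences was not tested.

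**Figure D3:**
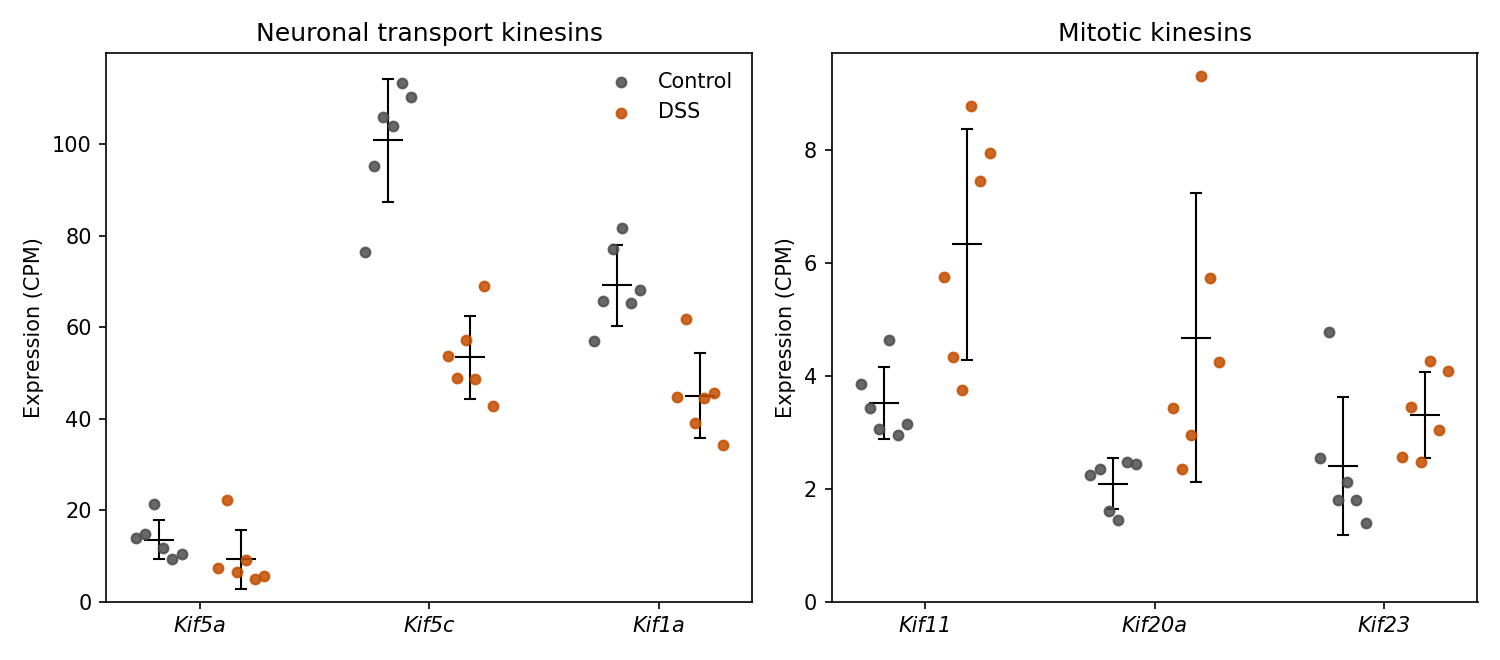
Expression of the 6 contrasted kinesin genes in CPM, 1 point per mouse, with the mean and SD of each group (n = 6) as a black bar. Kif5c has 76.3 to 113 CPM in Control and 42.8 to 69.1 CPM in DSS mice with no overlap, whereas Kif11, Kif20a and Kif23 overlap between the groups.

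Of the 12 mitotic members 5 were called higher in DSS mice and 0 lower, beside 3.68% and 1.26% of all tested genes. As Kif11 and Kif20a were picked on this comparison, nothing is read from this count. DSS mice spread widely. Kif11, the motor that drives spindle poles apart, ran from 2.96 to 4.64 CPM in Control mice (median 3.30) and from 3.75 to 8.78 CPM in DSS mice (median 6.61). Of the DSS mice, 4 lay above every Control mouse, and mice 2 and 3 lay within the Control range. The log2 fold change was 0.85 ± 0.21 SE, from 3.52 ± 0.640 to 6.34 ± 2.05 CPM (SD, n = 6 each). Kif11 lies on chromosome 19 from 37376403 to 37421859 (plus strand).

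Kif20a, which acts in cytokinesis at the central spindle, ran from 1.45 to 2.48 CPM in Control mice (median 2.30) and from 2.35 to 9.32 CPM in DSS mice (median 3.85). DSS mouse 4 was the highest and mouse 2 the only DSS mouse within the Control range. The log2 fold change was 1.15 ± 0.30 SE with all mice and 0.84 without DSS mouse 4. Exons of Kif20a overlap those of Cdc23 on the opposite strand, and, although the library kit kept the strand, whether the counting used it is not given in the sources, so reads of these genes may be shared. The same holds for Kif4 with Pdzd11, Kif18a with Mettl15 and Kif7 with Ticrr.

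Kif23, the motor of the centralspindlin complex of the midbody, differed least of the contrasted mitotic genes. It ran from 1.40 to 4.78 CPM in Control mice (median 1.96) and from 2.47 to 4.27 CPM in DSS mice (median 3.25), and 0 DSS mice lay above the highest Control mouse, which was mouse 2. The log2 fold change was 0.49 ± 0.27 SE with all mice and 0.79 without Control mouse 2. Kif23 lies on chromosome 9 from 61915905 to 61946774 (minus strand).

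Of the 9 mitotic members outside the contrast, 3 rose, beside 3.68% of all tested genes. Kif4, a chromosome-bound motor that shortens the central spindle, ran from 1.09 to 1.71 CPM in Control mice (median 1.41) and from 1.32 to 4.97 CPM in DSS mice (median 2.77). All DSS mice except number 2 lay above every Control mouse, and the rise was 2.09-fold (log2 fold change 1.06 ± 0.25 SE, adjusted p = 0.0258 by edgeR). Kif14 rose 2.18-fold, from 0.701 ± 0.110 to 1.54 ± 0.650 CPM (SD, n = 6 each; edgeR adjusted p = 0.0385). Kif2c, which depolymerises microtubules at centromeres, rose 2.07-fold, from 0.894 ± 0.0889 to 1.83 ± 0.799 CPM (SD, n = 6 each; edgeR adjusted p = 0.0435). In both genes DSS mouse 3 alone among the DSS mice lay within the Control range.

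Among the members outside the contrast, Kif14 and Kif2c lay just inside the threshold and Kif15, a spindle motor that can act beside Kif11, and Kif21a just outside it. Kif15 had 1.48 ± 0.667 CPM in Control and 2.92 ± 0.909 CPM in DSS mice (SD, n = 6 each). Its log2 fold change was 1.04 ± 0.29 SE (edgeR adjusted p = 0.0557). Without DSS mouse 2 the edgeR adjusted p was 0.0477, and it was also under 0.05 without DSS mouse 3 or without Control mouse 3. Kifc1, a minus-end motor that focuses spindle poles, stood 0.72 ± 0.21 SE higher on the log2 scale (adjusted p = 0.0625 by edgeR), with 5 of 6 DSS mice above every Control mouse. Without DSS mouse 2 the Kifc1 difference was 0.82 (adjusted p = 0.0207 by edgeR), and Kifc5b, a close copy of it, may share its reads. Kif18b, Kif20b and Kif22 had log2 fold changes of 0.93, 0.35 and 0.26 with adjusted p of 0.159, 0.408 and 0.574 by edgeR. Kif18a, which damps chromosome movements, was the 1 mitotic member below 0, at -0.18 ± 0.23 SE. No mitotic member had every DSS mouse above every Control mouse, a separation found in 2.23% of all tested genes.

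The calls of mitotic members depended on which single mouse was left out. With 1 mouse left out, the number of risen kinesin genes was 0 without Control mouse 5, Control mouse 6 or DSS mouse 4, and 1 without Control mouse 2, DSS mouse 5 or DSS mouse 6. It was 2 without Control mice 1, 3 or 4 or DSS mouse 1, 6 without DSS mouse 3 and 7 without DSS mouse 2. The Kif4 call was kept in 8 of the 12 cases and lost without Control mice 5 or 6 or DSS mice 4 or 5. That of Kif14 was kept in 3 cases (DSS mice 2, 3 or 5 left out) and that of Kif2c in 2 (DSS mice 2 or 3 left out), with log2 fold changes from 0.86 to 1.29 over these genes and mice.

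Genes of granulocyte precursors, which divide in the marrow, were higher in DSS mice. All 8 markers in that list rose by edgeR's test, beside 3.68% of all tested genes, and the median log2 fold change was 3.54. The list was chosen with earlier results of these data known, so its direction is no independent support. Their summed level ran from 15.9 to 44.7 CPM in Control mice and from 70.4 to 322 CPM in DSS mice. This sum rests mainly on Ngp and Camp, with DSS means of 139 and 55.0 CPM. Among DSS mice it was lowest in mouse 3, while mouse 2, low in Kif11, Kif20a and Kif4, had 301 CPM. Of other cells that can divide, 0 of 5 tested B lineage genes and 0 of 8 erythroblast genes were called by edgeR. At an unadjusted p under 0.05 there were 0 and 1, and DESeq2 and limma called 0 in both lists. Without Control mouse 6, 1 erythroblast gene fell. The summed levels of these lists overlapped between the groups, at 8.24 to 10.4 and 4.80 to 14.1 CPM for the B lineage and 791 to 1602 and 348 to 1406 CPM for erythroblasts (Control and DSS mice). In the osteoblast and melanocyte lists 1 gene each fell by edgeR, Ibsp and Dct (adjusted p = 0.0416 and 0.0473). In the osteoblast list 0 fell without Control mice 2, 3, 4 or 5 or DSS mice 1, 4, 5 or 6. In the melanocyte list 1 fell without Control mouse 1 or DSS mouse 5, and 0 fell without any other mouse. Among DSS mice the sum of the osteoblast list was highest in mice 4 and 5 (10813 and 11112 CPM) and lowest in mice 2 and 3 (4957 and 6148 CPM). That sum rests mainly on Col1a1 (DSS mean 6658 CPM), which is also on the meningeal fibroblast list. The fibroblast sum was likewise highest in DSS mice 4 and 5 (21251 and 20852 CPM) and lowest in DSS mice 2 and 3 (10924 and 13450 CPM). The 12 mitotic members summed to 54.2 and 43.9 CPM in mice 4 and 5 and to 27.2 and 25.4 CPM in mice 2 and 3. Among Control mice, mouse 5 had the highest osteoblast and fibroblast sums (9284 and 18659 CPM) and the lowest mitotic sum (21.7 CPM). The part of any of these cells in the mitotic differences was not tested.

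Set side by side in each mouse, the means of the 3 neuronal and the 3 mitotic members lay closer together in DSS mice. The neuronal mean minus the mitotic mean, in log2 CPM, ran from 3.72 to 4.70 in Control mice (median 4.14) and from 1.93 to 3.60 in DSS mice (median 2.54). DSS mouse 2, at 3.60, came closest to the Control mice. Group means were 4.11 ± 0.358 and 2.59 ± 0.653 (SD, n = 6 each), a difference of -1.52, with the neuronal mean differing by -0.75 and the mitotic mean by 0.77. Over all tested members of both classes, the picked 6 included, the difference was -1.04. As the members were picked for this pattern, the separation of the groups is no sign of its stability.

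**Figure D4:**
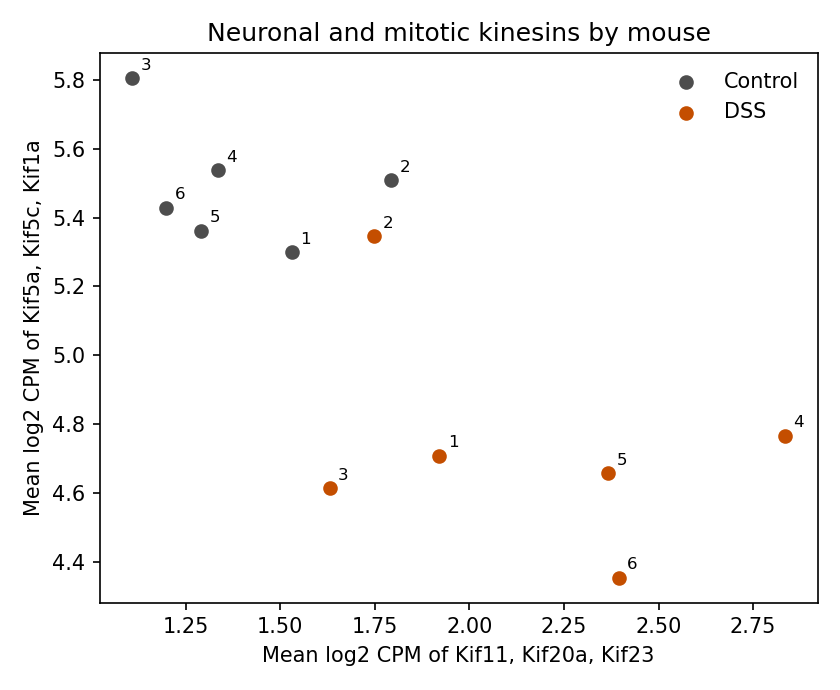
Mean log2 CPM of Kif5a, Kif5c and Kif1a (vertical) against that of Kif11, Kif20a and Kif23 (horizontal), 1 point per mouse with its number. Control mice lie between 5.30 and 5.81 on the vertical axis, DSS mouse 2 lies among them at 5.35, and the other DSS mice lie between 4.35 and 4.77.

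Among the 10 broadly expressed transport members, 0 were called by edgeR, 1 had an unadjusted p under 0.05, and DESeq2 called 1 (Kif21a, lower) and limma 0. Kif21a, a motor that restrains microtubule growth, had 12.0 to 17.6 CPM in Control mice (median 15.5) and 9.69 to 15.1 CPM in DSS mice (median 10.4). DSS mouse 2 was again the highest, and the other 5 lay below every Control mouse. Its log2 fold change was -0.42 ± 0.12 SE (adjusted p = 0.0624 by edgeR), and without DSS mouse 2 it was -0.51 (adjusted p = 0.00879). The most abundant motors differed little: Kif1c had 150 ± 11.8 and 137 ± 9.46 CPM and Kif1b 147 ± 14.4 and 138 ± 13.5 CPM (SD, n = 6 each). The remaining log2 fold changes in this class lay between -0.14 and 0.15.

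In the cilium and centriole class, 0 of 6 members were called by edgeR, DESeq2 or limma, and 1 had an unadjusted p under 0.05. That was Kif7, with 12.4 ± 1.28 CPM in Control and 10.1 ± 1.12 CPM in DSS mice (SD, n = 6 each; edgeR adjusted p = 0.0942). Kif27 and Kif9, known from motile cilia, had SEs of 0.49 and 0.25 on the log2 scale, so changes in them could be missed. Choroid plexus genes, whose tissue carries cilia, varied in both groups, with summed levels of 59.95 to 6894 CPM in Control and 36.7 to 6982 CPM in DSS mice. Kif2a, Kif26a and Kif26b, which take microtubules apart or lack motor activity, had log2 fold changes between -0.07 and 0.01, with 0 calls by any of these tools and 0 at an unadjusted p under 0.05.

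Deviations of each mouse from its group mean, which do not use the difference between the groups, were compared over the 12 mice. The median Pearson r was 0.47 over 66 pairs of mitotic members and 0.36 over 15 pairs of the cilium class, against 0.11 over 21 neuron-enriched and 0.10 over 45 broadly expressed pairs, and 0.01 over pairs of the 12907 genes whose log2 CPM averaged 1 or more. These pairs share libraries and depth, and the medians are a description. Among the contrasted genes r was 0.60 for Kif11 with Kif20a and 0.40 for Kif11 with Kif23, and 0.66 for Kif1a with Kif5a but -0.34 for Kif5c with Kif5a.

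The genes whose deviations were most like those of Kif5c were Fam57b (r = 0.96), Mrpl41 (0.95), Ap3b2 (0.94), Samd11 (0.93) and Clstn3 (0.93), out of 12906 ranked genes. For Kif11 they were Cltc (0.95), Prc1 (0.93), Pirb (0.91), Itgb1 (0.91) and Mki67 (0.91). Prc1 bundles the microtubules of the central spindle, and Mki67 encodes the antigen of cycling cells. These values are the highest of many and carry no test.

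Deviations of the 6 contrasted genes were also set beside those of the marker lists, a comparison chosen after the data were seen. Of the 6 relations, 0 passed at a Benjamini-Hochberg adjusted p under 0.05 (permutation of mice within groups, two-sided, 100000 resamples). For the mean of the neuron list, Kif1a had r = 0.72 (permutation p = 0.0359, adjusted 0.167; rho = 0.43, p = 0.197) and Kif5a r = 0.70 (permutation p = 0.0557, adjusted 0.167; rho = 0.24, p = 0.485). Without the 2 mice farthest from the median of the list, DSS mice 2 and 6, r was 0.0029 and 0.14, so both rest on those mice. Kif5c had r = 0.23 with the neuron list (permutation p = 0.522, adjusted 0.522; rho = 0.38, p = 0.250), and 0.31 without the same 2 mice. With the granulocyte precursor list, r was 0.47 for Kif11 (permutation p = 0.207, adjusted 0.329; rho = 0.31, p = 0.356), 0.41 for Kif20a (permutation p = 0.308, adjusted 0.369; rho = 0.32, p = 0.348) and 0.35 for Kif23 (permutation p = 0.220, adjusted 0.329; rho = 0.26, p = 0.430). Without Control mouse 1 and DSS mouse 3, these were 0.11, 0.38 and 0.37. The Kif11 value joins opposite signs, with r = -0.59 over Control mice alone and 0.77 over DSS mice alone. For Kif20a and Kif23, r was positive in both groups.

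Genes that work with the mitotic kinesins were higher in DSS mice as well. Of 32 tested spindle partner genes 11 rose and 0 fell, and the median log2 fold change was 0.79, beside 3.68% of all tested genes rising. This list overlaps genes known to move from earlier results of these data, so its direction is no independent support. Foxm1, the transcription factor that activates genes of late cell cycle, rose from 2.15 ± 0.325 to 4.31 ± 1.47 CPM (SD, n = 6 each; edgeR adjusted p = 0.0128), and Birc5, of the chromosomal passenger complex, from 0.902 ± 0.258 to 2.38 ± 0.922 CPM (edgeR adjusted p = 0.0121). Mki67 rose with a log2 fold change of 1.38 ± 0.23 SE and Top2a, which untangles DNA before division, with 1.08 ± 0.23 SE (edgeR adjusted p = 0.00333 and 0.0154). Cenpe, itself a kinesin of the centromere under another name, stood 0.67 ± 0.20 SE higher on the log2 scale (edgeR adjusted p = 0.0657). The number of risen partners was 5 without Control mouse 5 or DSS mouse 6, 6 without DSS mouse 4, 7 without Control mouse 6 or DSS mouse 5, 22 without DSS mouse 3, 12 without both mice numbered 2 and 19 by DESeq2.

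Partners of the transport kinesins and the opposing motor dynein mostly did not pass the test. Of all tested genes 1.26% fell and 3.68% rose. Of 26 tested light chain and cargo adaptor genes 1 fell and 0 rose, and the median log2 fold change was -0.05. The fallen gene was Mapk8ip2, a scaffold that links conventional kinesin to cargo in neurons, which had 11.3 to 16.5 CPM in Control and 7.25 to 11.8 CPM in DSS mice (log2 fold change -0.63 ± 0.13 SE, edgeR adjusted p = 0.0123), and 2 genes fell without DSS mouse 3. The light chain gene Klc1 had 77.8 ± 5.54 and 78.1 ± 5.36 CPM (SD, n = 6 each). Of 30 dynein and dynactin genes 1 rose, Dynlt1a, a dynein light chain with close copies that may share reads (log2 fold change 0.67 ± 0.15 SE, edgeR adjusted p = 0.0180), and 1 fell, Actr10, a dynactin subunit (-0.26 ± 0.07 SE, adjusted p = 0.0404). With 1 mouse left out, 1 gene of this list fell without Control mouse 1, DSS mouse 2 or DSS mouse 5, and 0 fell without any other mouse.

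Among 23 tubulin and microtubule-associated genes 1 fell and 0 rose, beside 1.26% and 3.68% of all tested genes. The median log2 fold change was -0.12. The fallen gene was Tubb3, the neuronal beta tubulin, with 28.5 to 41.1 CPM in Control and 16.2 to 30.2 CPM in DSS mice (log2 fold change -0.69 ± 0.16 SE, edgeR adjusted p = 0.0217). The groups overlapped slightly, and this list shares Stmn2 with the neuron list. The number of fallen members was 0 without Control mice 5 or 6 or DSS mice 1 or 6, 3 without Control mouse 1 or by limma, 4 by DESeq2, and 5 without DSS mouse 2 or without both mice numbered 2.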

How the data were processed

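Counts per gene symbol were used as the authors deposited them, not normalized; the submitters' processing notes name HISAT2 and featureCounts, beside Trim Galore, CASAVA and FastQC, and the build mm10. Versions, annotation, strand setting and the handling of multimapping reads: not given in the sources used here. Columns were matched to mice by headings equal to the sample descriptions. The second table the authors deposited is a normalized signal, each column being the counts divided by 1 factor equal to the median-of-ratios size factor. It served as an alternative only.

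Differences were tested with edgeR 4.0.16 in R 4.3.3: filterByExpr (minimum count 10, minimum total 15), TMM, the two-sided quasi-likelihood F-test with treatment as the only term, and Benjamini-Hochberg adjustment over 18593 genes at 0.05. Each SE was taken from the size of the log2 fold change and the root of its F value. Log2 CPM used a prior count of 2. Lengths are merged exons of GENCODE M21 (GRCm38), which holds 94.9% of the symbols; promoter windows matched 32 of the 40 members. The fit was tested on simulated data. The 30 pairs of libraries within a group differed by a chi-square of at least 19.1 per degree of freedom, so none was a repeat. The labels number the samples of a group without naming animals, so p-values measure the spread between these samples.

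Members, role classes and gene lists were chosen with earlier results of these data known. Named were the 6 contrasted genes, other called members, the highest member per length in each class, the 2 members outside the contrast nearest the threshold on either side, and up to 4 genes of smallest p per list; Kif5b, Kif1b, Klc1, Cenpe, Kif18a and other members were added for context. Alternatives were DESeq2 1.42.0 and its size factors, limma 3.58.1 on log2 of the normalized values plus 1, other filters (at least 1 count, or a CPM of 1 in 6 libraries), robust dispersion, the replicate number as a block, a prior count of 0.5, and mice left out.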

Additional observations from a re-analysis of the deposited data

How the results depend on the processing

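Without any 1 mouse the number of changed genes ran from 538 to 1379 (919 with all mice), of risen kinesin genes from 0 to 7 (5) and of fallen ones from 2 to 4 (2). DESeq2's Wald test called 1551 genes. Risen kinesin genes numbered 3 with no filter beyond 1 count and 2 by limma on the deposited normalized values, and 4 kinesin genes fell with both replicate 2 mice left out. The cause was not tested. Kif5a had a log2 fold change of -0.96 and Kif23 of 0.77 without both replicate 2 mice. The neuronal minus mitotic difference ran from -1.72 to -1.39 with 1 mouse left out and was -1.54 with a prior count of 0.5, -1.53 on the deposited normalized values and -1.80 without both replicate 2 mice.

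The replicate numbers did not pair the mice: deviations of same-numbered mice correlated at -0.19 to 0.15, and 0 of 6 numbers correlated best with their own. With the replicate number as a block, 708 genes changed, 3 kinesin genes rose and 2 fell.

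Depth limits the members with few counts, such as Kif6 with 4 to 35, Kif14 with 6 to 63 and Kif17 with 9 to 47 counts per library. With 2 features taking 59.8% of Control replicate 2, its other genes rest on fewer counts.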
